A study of Mus musculus with 20 samples.

Results

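Integrins are adhesion receptors made of an alpha and a beta chain, and the pair decides which ligand is bound. The 10 subunits described here are Itga4, Itga5, Itga6, Itga9, Itgal, Itgav, Itgb1, Itgb2, Itgb3 and Itgb5, chosen by symbol as the integrin chains other than Itgam (CD11b) and Itgax (CD11c), and all 10 were listed among the 21315 gene symbols measured. Itgb1 is the common partner of Itga4, Itga5, Itga6 and Itga9, and gives receptors for fibronectin (Itga5), laminin (Itga6), VCAM-1 (Itga4, and Itga9 with tenascin-C). Itgb2 pairs with Itgal to form LFA-1, the leukocyte receptor for ICAMs, and also with CD11b and CD11c. Itgav pairs with Itgb1, Itgb3 or Itgb5 and binds proteins with an RGD motif, among them vitronectin, osteopontin and MFG-E8, which bridges this receptor to dying cells. Talins and kindlins bind the beta chain inside the cell and switch the receptor to its active form. In microglia, integrins anchor the cell to the matrix, guide its processes and take part in phagocytosis, and receptors with Itgav also release active TGF-beta from its latent form.

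RNA from microglia of 9-month-old C57BL/6 mice was sequenced in 20 libraries of 6 groups. APP-KI mice carry the App NL-G-F knock-in, a humanized App gene with familial Alzheimer mutations, and form Aβ plaques, and C3aR-KO mice lack C3ar1, the gene for the complement C3a receptor, in every cell. In 14 libraries the microglia, sorted as CD45-intermediate CD11b-positive cells, were not selected further (named all sorted in the plots). Of these libraries 3 were WT, 3 APP-KI, 3 C3aR-KO and 5 APP-KI; C3aR-KO, and mice of these genotypes were bred as littermates. In 6 libraries, labelled WT C3aR+ and APP-KI C3aR+ with 3 each, the cells were also sorted for a Td-tomato reporter of C3ar1. These mice of both genotypes carried that reporter from a floxed C3ar1 line (C3ar1 fl/fl). They were bred from heterozygous parents, and their own zygosity for the reporter is not stated. Both sexes were used. Since CD11b was a gate of the sort, its own chain is left out here. The libraries held between 13939559 and 76608464 reads.

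The level given below is a scaled value. Reads of a gene were set against the upper quartile of all genes in that library and brought to a common scale by 1 constant (35.1), so that 1 read was worth 0.0132 to 0.0785 and gene length played no part. Each subunit had between 292 and 204663 reads in a library. C3ar1 was checked first. It lay between 39.8 and 80.2 in the 8 libraries without C3ar1 and between 275 and 339 in WT. In the libraries labelled WT C3aR+ it lay between 37.5 and 81.0, the range of the knockouts, which goes against that label, whereas those labelled APP-KI C3aR+ held 201 to 382. The direction of every comparison with the libraries labelled WT C3aR+ rests on them. Of the 14 unselected libraries, 4 listed over 8000 genes at 0 (APP-KI replicate 4, C3aR-KO replicates 1 and 2, and APP-KI; C3aR-KO replicate 1), against 4688 to 6430 in 14 of the other 16 libraries, 3870 in APP-KI; C3aR-KO replicate 2 and 105 in APP-KI replicate 5. Microglial markers stood high in all 20 libraries (11 genes, summed level 11887 to 37712), and 5 of the 11 were lower in the libraries labelled APP-KI C3aR+ than in those labelled WT C3aR+. Their lowest sums were in APP-KI; C3aR-KO replicate 1 (11887) and APP-KI replicate 4 (14214). The same libraries had the highest sums of 12 genes raised by warm dissociation (6197 and 7237, against 2154 to 5075 in the others). The labels do not say that the libraries of a group came from separate mice, and p-values measure the spread between libraries. In bulk samples, fewer cells of a type and less RNA per cell cannot be told apart. Where groups are said to be separate or not to overlap, this is a description and not a test. The share of all genes with separate groups was not computed.

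Over the 20 libraries the highest level of a subunit was between 2.11 (Itga6) and 8.93 (Itgal) times its lowest. Per exonic kilobase, the scale on which genes can be compared, Itgb5 was the highest subunit in all 6 groups (741 ± 21.7 in WT, SD, n = 3), followed by Itgb2 (246 ± 15.0) and Itgb1 (106 ± 6.41). The alpha chains followed, with Itga6 at 69.4 ± 10.5 and Itgav at 39.1 ± 0.243 per kilobase in WT. Itgb3 (26.4 ± 2.45), Itga9 (21.8 ± 0.558) and Itga5 (11.9 ± 1.22) came next in WT. Itgal (4.15 ± 1.49) and Itga4 (3.18 ± 0.531) closed the list, and these last neighbours overlapped. In WT every other pair of neighbours was separate in all libraries. The first 4 places were held by the same subunits in the same order in all 6 groups, and the top 2, Itgb5 over Itgb2 and Itgb2 over Itgb1, were separate in each group. The places below changed with genotype. In WT and in the libraries labelled WT C3aR+ the order ran Itgav, Itgb3, Itga9, Itga5. In APP-KI, in those labelled APP-KI C3aR+ and in APP-KI; C3aR-KO it ran Itgb3, Itgav, Itga5, Itga9. C3aR-KO kept the order of WT, with overlap between Itgav and Itgb3, Itgb3 and Itga9, and Itgal and Itga4. In the libraries labelled WT C3aR+ the overlap was between Itgb3 and Itga9, and in those labelled APP-KI C3aR+ between Itgav and Itga5. In APP-KI it joined Itgb3, Itgav and Itga5, and also Itgal and Itga4, and in APP-KI; C3aR-KO it ran from Itgb1 down to Itga9 and also joined Itgal and Itga4.

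**Figure D1:**
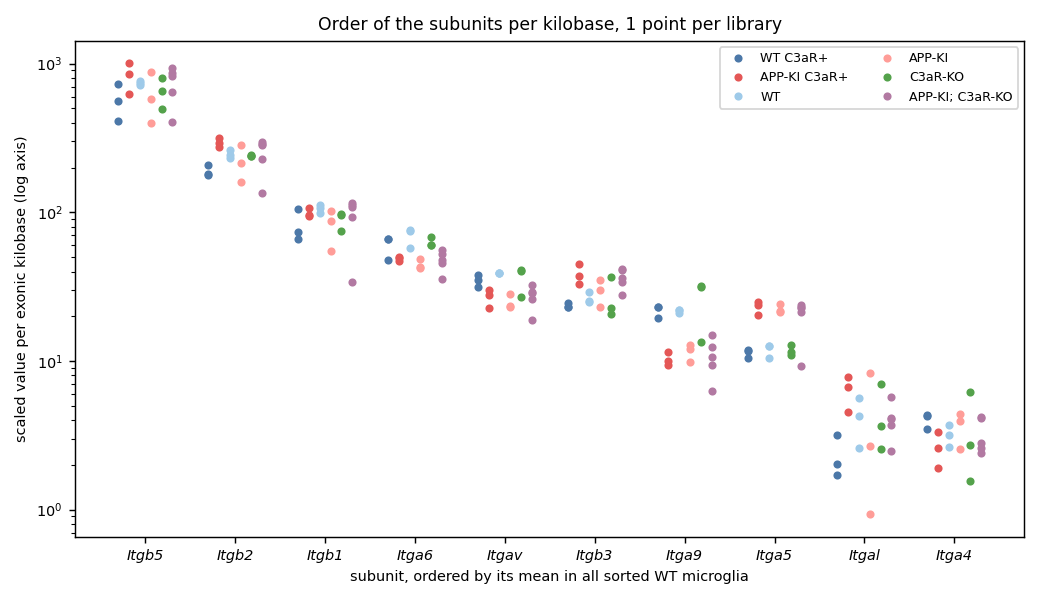
Scaled value per exonic kilobase on a log axis for the 10 subunits, ordered by their mean in unselected WT microglia, with 1 point per library and a colour per group. Itgb5 stands highest and Itga4 and Itgal lowest throughout, while Itga9 lies lower and Itga5 higher in nearly all APP-KI libraries than in those without the knock-in.

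The first comparison asked what differs between reporter-sorted microglia of APP-KI and WT mice. Their mean C3ar1 level also differed (278 and 63.1, against 289 and 315 in unselected APP-KI and WT). The knock-in and the C3ar1 level of the sorted cells therefore cannot be told apart here. Itga5, Itgal, Itgb2 and Itgb3 were higher in the libraries labelled APP-KI C3aR+ than in those labelled WT C3aR+, and Itga9 was lower. Thus 4 of the 10 subunits rose, where 13% of the 12311 genes tested did, and 1 fell, where 9.71% did. The median log2 difference of the subunits was 0.43, beside -0.17 for all genes. That median of all genes moved to -0.03 with median-ratio scaling, and with that scaling 1846 genes were higher and 605 lower, in place of 1602 and 1196. The 5 calls remained in each of the 14 other settings run at the same threshold, each library left out in turn included.

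Itga5, the fibronectin receptor's alpha chain (GRCm38, chr15:103344286-103366763, minus strand), stood at 51.9, 58.9 and 57.2 in the libraries labelled WT C3aR+. In those labelled APP-KI C3aR+ it stood at 124, 100.1 and 117. The groups were separate, and the mean was 2.03 times higher (log2 difference 1.01 ± 0.13, SE, n = 3 and 3, adjusted p = 0.00083, limma). Both Itga5 and Itgav bind RGD-containing ligands, and the 250 bases before their RefSeq start sites (GRCm38.p6, RefSeq) are shown because the first passed the test as higher and the second, at a difference below 0, did not pass. Capitals mark matches to GAGGAA, the core of the site of the myeloid factor PU.1, or to ACGTG, the core of the HIF site, on either strand.
Itga5, chr15:103366792-103367041, minus strand: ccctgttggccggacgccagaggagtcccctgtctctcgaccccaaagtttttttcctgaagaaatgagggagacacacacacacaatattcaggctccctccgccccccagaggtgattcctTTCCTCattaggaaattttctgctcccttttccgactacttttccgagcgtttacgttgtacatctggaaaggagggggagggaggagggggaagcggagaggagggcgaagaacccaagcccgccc
Itgav, chr2:83724147-83724396, plus strand: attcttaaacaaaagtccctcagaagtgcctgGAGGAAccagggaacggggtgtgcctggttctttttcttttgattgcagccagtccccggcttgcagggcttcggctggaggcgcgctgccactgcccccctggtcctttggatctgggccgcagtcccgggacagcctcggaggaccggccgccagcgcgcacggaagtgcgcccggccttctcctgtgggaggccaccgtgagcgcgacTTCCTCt
GAGGAA, read on both strands, occurred 1 time in the Itga5 window and 2 times in that of Itgav, and in 23.3% of the 32851 promoter windows of the same length. ACGTG occurred in neither and in 16.6% of all windows. Sequence windows were found for 6 of the 10 subunits (also Itga4, Itga9, Itgb1 and Itgb5). A match is a run of letters and does not show binding.

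Itga9, the alpha chain of a receptor for tenascin-C, osteopontin and VCAM-1 (chr9:118606690-118901003, plus strand), moved the other way. It stood at 178, 149 and 178 in the libraries labelled WT C3aR+ and at 88.9, 72.2 and 77.3 in those labelled APP-KI C3aR+. The lower group lay wholly below, at 0.472 of the mean of the other (log2 difference -1.07 ± 0.13, SE, adjusted p = 0.00053, limma). Itgb3, which pairs with Itgav (chr11:104608000-104670476, plus strand), stood at 136, 137 and 146 in the libraries labelled WT C3aR+ and at 193, 221 and 267 in those labelled APP-KI C3aR+. Its groups did not overlap, and its log2 difference was 0.69 ± 0.13 (SE, adjusted p = 0.0057, limma). Platelets and endothelial cells carry Itgb3. Their 10 markers summed to 51.9 to 104 in the libraries labelled WT C3aR+ and to 172 to 326 in those labelled APP-KI C3aR+. Of the 7 tested, Flt1 was higher (log2 difference 3.75) and Pecam1 (-2.09) and the platelet gene Gp9 (-2.29) were lower. In unselected microglia the 10 markers summed to 56.2 to 69.9 in WT and to 204 to 262 in APP-KI, and Itgb3 did not pass the test there. The part of these cells in the level of Itgb3 was not tested.

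Both chains of LFA-1 were higher. Itgb2, the beta chain shared with CD11b and CD11c (chr10:77530252-77565708, plus strand), stood at 547, 634 and 550 in the libraries labelled WT C3aR+ and at 887, 836 and 964 in those labelled APP-KI C3aR+ (log2 difference 0.63 ± 0.12, SE, adjusted p = 0.0053, limma). Itgal (chr7:127296260-127335138, plus strand) was a low gene, at 13.3, 20.95 and 11.2 against 30.0, 51.1 and 43.6, and its groups were also separate (log2 difference 1.41 ± 0.29, SE, adjusted p = 0.0078, limma). T and NK cells carry much LFA-1. Their 9 listed markers summed to 7.0 to 14.8 in the libraries labelled WT C3aR+ and to 4.50 to 13.9 in those labelled APP-KI C3aR+, where Cd3g, Ncr1 and Gzma had no read in either group and Cd3e and Nkg7 none in the latter.

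The other 5 subunits did not pass the test. Itga4 stood between 48.9 and 60.4 in the libraries labelled WT C3aR+ and between 26.7 and 46.3 in those labelled APP-KI C3aR+, a log2 difference of -0.64 ± 0.21 (SE, adjusted p = 0.055, limma), which went past the threshold without APP-KI C3aR+ replicate 1 (-0.83) and with the replicate number as a block (-0.64, adjusted p = 0.046). Itga4 shares 1124 exonic bases with Cerkl on the opposite strand, and whether reads were counted by strand is not given in the sources used here. Itgav stood between 337 and 410 and between 245 and 321, again without overlap (log2 difference -0.38 ± 0.13, SE, adjusted p = 0.066), and passed without APP-KI C3aR+ replicate 3 (-0.46) and with quantile normalization (-0.41). Itga6, the laminin receptor's alpha chain, differed by -0.28 ± 0.14 on the log2 scale (adjusted p = 0.17). Itgb1 differed by 0.31 ± 0.16 (adjusted p = 0.20) and passed without WT C3aR+ replicate 1 (0.50), and Itgb5 differed by 0.56 ± 0.24 (adjusted p = 0.13). Border macrophage markers, 10 genes, summed to 498 to 751 in the libraries labelled WT C3aR+ and to 200 to 423 in those labelled APP-KI C3aR+, and 5 of them were called lower; their part in the differences of the subunits was not tested. Of the 12 genes raised by warm dissociation, 1 was higher and 3 were lower.

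**Figure D2:**
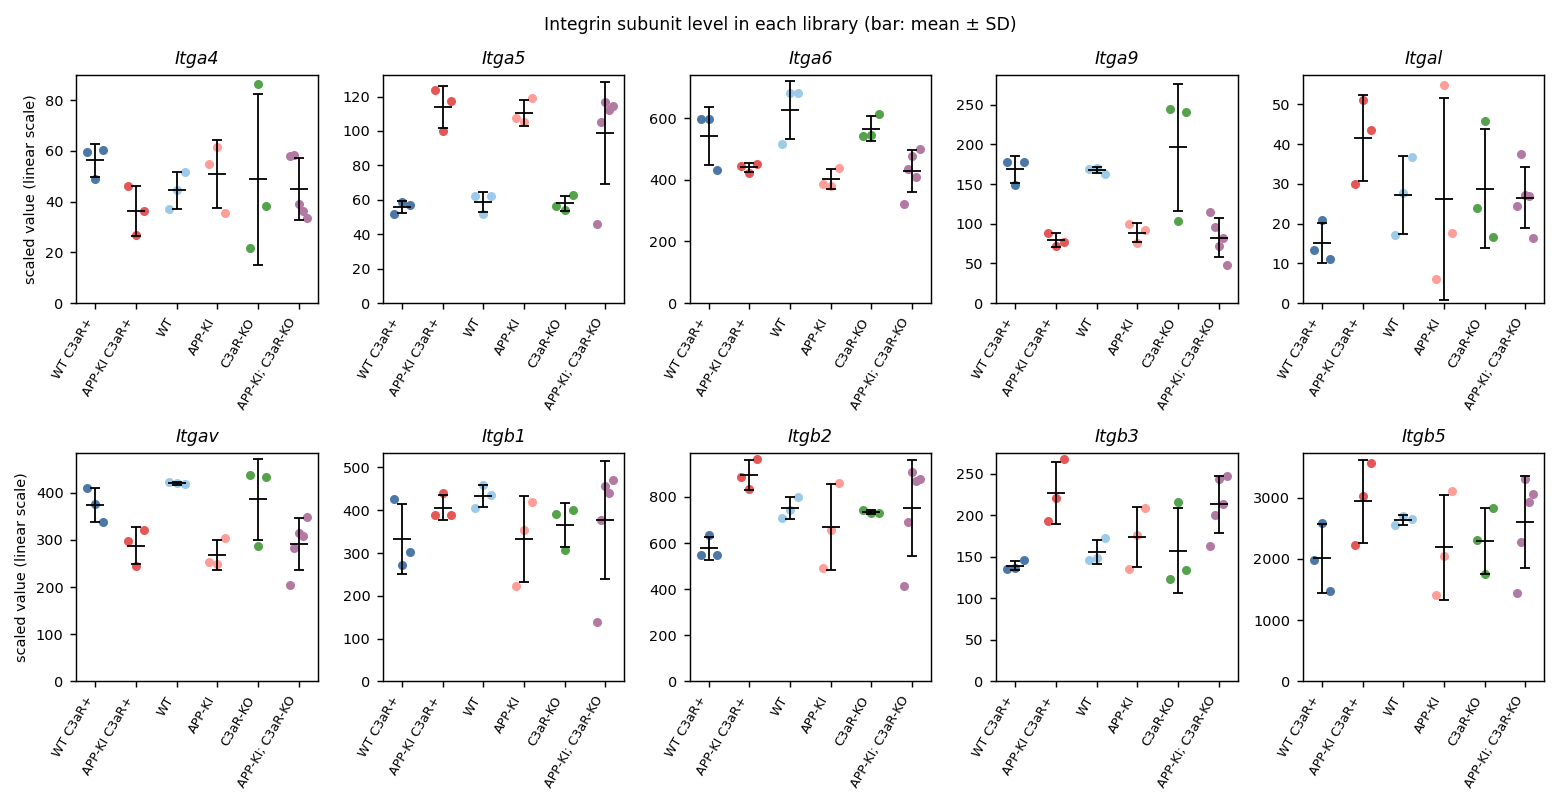
Scaled value of each subunit in every library on a linear scale from 0, with 1 point per library and a bar for the mean ± SD of each of the 6 groups. Itga5 separates the 3 libraries labelled APP-KI C3aR+ and the 3 APP-KI libraries from their controls, while 1 of the 5 APP-KI; C3aR-KO libraries lies at 46.0, below every library without the knock-in.

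The second comparison set APP-KI against WT in microglia that were not selected on C3aR, in 1 fit of 14 libraries with a term for the 2 series of library numbers (24 and 26). Only Itga5 passed the test, so that 1 of 10 subunits rose, where 2.22% of the 12402 genes tested rose, and none fell, where 1.93% did. Itga5 stood at 62.4, 51.8 and 62.0 in WT and at 107, 105 and 119 in APP-KI. The groups were separate, and the log2 difference was 1.01 ± 0.26 (SE, n = 3 and 3, adjusted p = 0.044, limma). Within series 24 (2 APP-KI libraries and 1 WT) it was 0.76, and within series 26 (1 APP-KI and 2 WT) it was 1.06. The log2 difference lay between 0.84 and 1.23 in 26 other settings at the same threshold, and 8 of them called it. The call was lost when any 1 library was left out (adjusted p of 0.054 to 0.19), other than APP-KI; C3aR-KO replicate 1 (0.93 without it, adjusted p = 0.00046) and replicate 2 (1.04, adjusted p = 0.036).

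Itga9 lay between 163 and 171 in WT and between 75.3 and 99.3 in APP-KI, again without overlap, and its log2 difference of -0.95 ± 0.33 did not pass (SE, adjusted p = 0.16, limma). Itga6 (516 to 681 in WT, 381 to 438 in APP-KI) and Itgav (418 to 423 and 248.5 to 305), named here after their values were seen, were separate too, at -0.54 ± 0.15 (adjusted p = 0.056) and -0.56 ± 0.18 (adjusted p = 0.12). Neither passed the test, and how many of all genes were separate in this way was not computed. Itgb3 stood at 146, 149 and 172 in WT and at 136, 177 and 208 in APP-KI, which overlapped (0.20 ± 0.22, adjusted p = 0.89). Itgb2 lay between 711 and 801 in WT and spread from 490 to 861 in APP-KI (-0.06 ± 0.22, adjusted p = 0.99). Itgal ran from 17.2 to 36.8 in WT and from 6.14 to 54.8 in APP-KI, where the highest library, replicate 5, also had the highest summed T and NK markers (78.6, against 10.1 and 5.78 in replicates 4 and 6); its log2 difference was -0.53 ± 0.60 (adjusted p = 0.90).

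Without the 4 libraries that listed over 8000 genes at 0, an alternative added after the data were seen, 5 subunits passed the test between APP-KI and WT. Itga5 (log2 difference 0.93, adjusted p = 0.00020, limma) and Itgb3 (0.34, adjusted p = 0.022) were higher, where 13.2% of all genes tested were. Itga6 (-0.56, adjusted p = 0.0045), Itga9 (-1.02, adjusted p = 0.010) and Itgav (-0.58, adjusted p = 0.0014) were lower, where 14.7% were. APP-KI then held 2 libraries.

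The same knock-in was compared in mice without C3ar1, as APP-KI; C3aR-KO against C3aR-KO. Itga9 and Itga6 were lower, 2 of 10 subunits, where 2.98% of all genes fell, and none passed as higher, where 3.96% did. Itga9 stood at 245, 103 and 240 in C3aR-KO and at 114, 95.7, 72.1, 81.7 and 48.3 in APP-KI; C3aR-KO. C3aR-KO replicate 2 lay inside the range of the double mutants, so that the groups overlapped. The log2 difference was -1.16 ± 0.29 (SE, n = 5 and 3, adjusted p = 0.025, limma). It was -0.60 within series 24 (2 libraries against 2) and -1.85 within series 26 (3 against 1). The call was lost without C3aR-KO replicate 1 (-0.98) or replicate 3 (-0.82). Itga6 stood between 540 and 613 in C3aR-KO and between 323 and 500 in APP-KI; C3aR-KO, without overlap. Its log2 difference was -0.49 ± 0.13 (SE, adjusted p = 0.036, limma), with -0.53 and -0.41 within the same series. The second of these again rests on 1 C3aR-KO library. Itga6 was called in 7 of 26 other settings. Its call was lost without any 1 WT or C3aR-KO library, APP-KI replicate 6, or APP-KI; C3aR-KO replicate 3 or 4.

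Itga5 stood at 56.5, 54.1 and 63.0 in C3aR-KO and at 46.0, 105, 117, 112 and 114 in APP-KI; C3aR-KO. In replicates 2 to 5 it was above every C3aR-KO library and in replicate 1 below them all, and the log2 difference of 0.61 ± 0.23 did not pass (adjusted p = 0.15, limma). Itga5, Itgb3 and Itgav are named in this comparison after their values were seen. Without the 4 libraries with over 8000 genes at 0, Itga5 was called higher (0.83, adjusted p = 0.0012, limma), as was Itgb3 (0.79, adjusted p = 0.00094), where 13.2% of all genes were. Itga9 (-1.76, adjusted p = 0.0020) and Itgav (-0.43, adjusted p = 0.016) were lower, where 18.2% were. Itga6 was no longer called (-0.38, adjusted p = 0.057). C3aR-KO was then represented by replicate 3 alone, which is assumed to vary like the other groups.

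The ratio of 2 chains within a library needs no scaling between libraries. It is given as a description, since the pairs were chosen after their levels were seen. Per exonic base, Itga5 lay below Itga9 in all 9 libraries without the knock-in (log2 ratio -1.47 to -0.29, median -0.997) and above it in 10 of 11 libraries with it (median 1.11). The exception was APP-KI; C3aR-KO replicate 1 (-0.67), and the next lowest was 0.75. Itgb3 lay below its partner Itgav in 8 of the 9 libraries without the knock-in (median -0.63) and above it in 10 of 11 with it (median 0.37). The exceptions, C3aR-KO replicate 2 (0.45) and APP-KI replicate 4 (-0.03), both listed over 8000 genes at 0, and with them the ranges overlapped. The side of 0 depends on the exonic lengths used (5901 bases for Itgb3, 10744 for Itgav), while differences between libraries do not. Before division by length, Itgb3 had fewer reads than Itgav in every library. Itgav also shares 634 exonic bases with Gm13684 on the opposite strand. Itgb2 exceeded Itgb1 in all 20 libraries, with medians of 1.29 without and 1.41 with the knock-in.

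**Figure D3:**
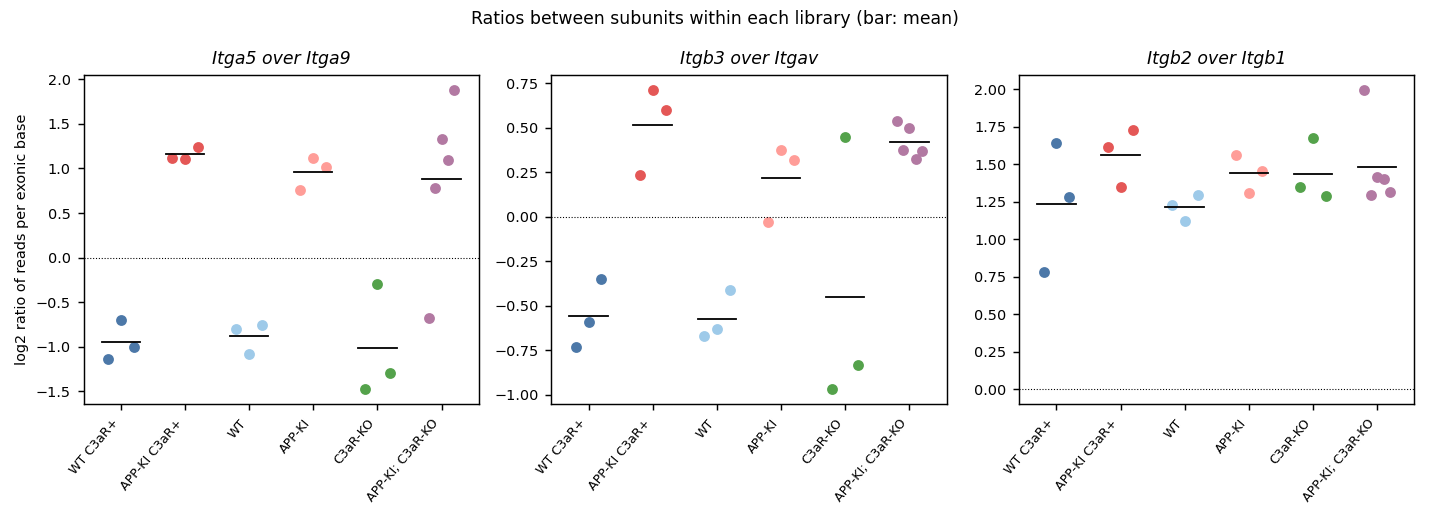
The log2 ratio of reads per exonic base of 2 subunits within each library, by group, with 1 point per library, a bar for the mean and a dotted line at 0. Itga5 over Itga9 lies below 0 in the 9 libraries without the knock-in and above 0 in 10 of 11 with it, and Itgb2 over Itgb1 lies above 0 in all.

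Loss of C3ar1 was examined in both backgrounds. Between C3aR-KO and WT no subunit passed the adjusted test, where 0.00806% of all genes did, and none had an unadjusted p under 0.05, where 2.77% did. The 10 log2 differences ran from -0.19 to 0.11, with a median of -0.03 beside -0.03 for all genes. Itga4 had the smallest p (-0.19, 95% interval -1.01 to 0.62), with C3aR-KO libraries from 21.7 to 86.6 around the 37.0 to 51.9 of WT, and Itgb2 came next (0.11, -0.37 to 0.58). In the APP-KI background, with C3ar1 lost against C3ar1 present, no subunit passed either, where 0.00806% of all genes did, and none had an unadjusted p under 0.05, where 1.19% did. Itga5 differed by -0.31 on the log2 scale (95% interval -0.81 to 0.18) and by -0.01 without the libraries with over 8000 genes at 0. Itgb3 differed by 0.25 (-0.16 to 0.66). Of the 10 intervals that of Itga6 was the narrowest (-0.27 to 0.28) and that of Itgal the widest (-0.64 to 1.64), both named after their values were seen. Changes inside the intervals are not excluded by these data.

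The effect of losing C3ar1 was also compared between the backgrounds. No subunit passed, where 0% of all genes did, and none had an unadjusted p under 0.05, where 1.64% did. By unadjusted p, Itga5 came first (difference of log2 differences -0.40, 95% interval -1.16 to 0.36) and Itgb3 next (0.21, -0.42 to 0.85). The largest difference, named after its value was seen, was that of Itgal (0.54, -1.22 to 2.29). For these 3 comparisons edgeR on the recovered reads called none of the subunits either. They share libraries with those of the knock-in, so that their values are not independent of each other.

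**Figure D4:**
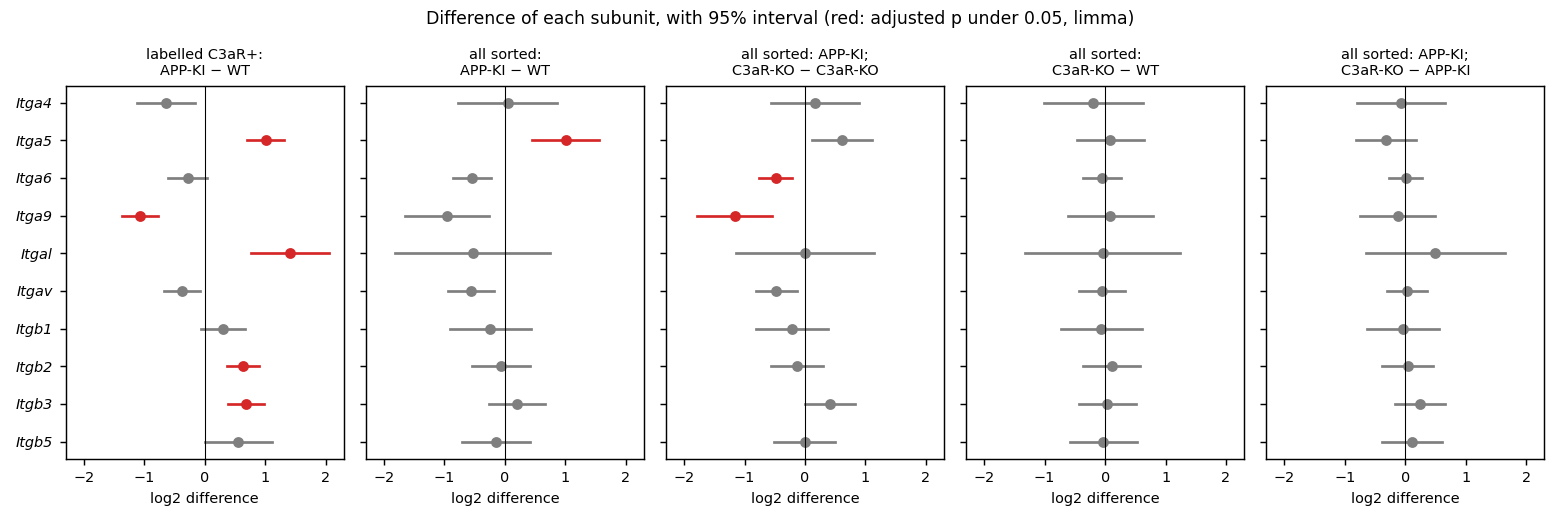
Log2 difference of each subunit with its 95% interval in 5 comparisons, in red where the adjusted p was under 0.05. The first panel holds 5 red subunits, the second 1 and the third 2, and both panels of C3ar1 loss hold none.

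Reporter-sorted and unselected microglia differed in library series and in the reporter line as well as in the sort, which cannot be told apart. No subunit passed the adjusted test between libraries labelled WT C3aR+ and WT, where 0% of all genes did. None had an unadjusted p under 0.05 there, where 4.39% did. Between libraries labelled APP-KI C3aR+ and APP-KI none passed, where 0% of all genes did, and 2 subunits, Itgb2 (0.45) and Itgb3 (0.39 on the log2 scale), named after their values were seen, had an unadjusted p under 0.05, where 5.22% of all genes did. The effect of the knock-in was then compared between the sorts, although in the reporter-sorted libraries the genotypes also differed in C3ar1 level. No subunit passed, where 0% of all genes did, and 5 had an unadjusted p under 0.05, where 11.8% of all genes did. By unadjusted p, Itgb2 came first (difference of log2 differences 0.84, 95% interval 0.29 to 1.39, adjusted p = 0.39, limma), followed by Itga4 (-0.81, -1.52 to -0.09, adjusted p = 0.40). The largest difference, named after its value was seen, was that of Itgal (1.88, 0.16 to 3.60, adjusted p = 0.41). That Itgb2, Itgal and Itgb3 were called in one sort and not in the other is therefore not shown to be a difference between the sorts. In these 3 comparisons edgeR called none of the subunits.

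The rest of the integrin system was described by lists. Of 16 further subunits, 13 were tested in the reporter-sorted libraries, where 1 was higher and 1 lower, beside 13% and 9.71% of all genes. Itgax, a partner of Itgb2 and a known mark of microglia at plaques, rose by 4.76 ± 0.33 on the log2 scale (SE, adjusted p = 3e-05, limma), from a mean of 60.2 to 1800. It also rose in unselected microglia (5.17 ± 0.34) and without C3ar1 (5.21 ± 0.30), where it was the 1 list gene called of 14 tested in each. Of all genes, 2.22% and 3.96% were higher in these 2 comparisons and 1.93% and 2.98% lower. Itgb7, the partner of Itga4 on lymphocytes that home to the gut, fell in the reporter-sorted libraries by 1.74 on the log2 scale (SE 0.44, adjusted p = 0.020), from 14.7 ± 3.00 to 4.04 ± 2.42.

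Of the 36 activators and adaptors that link integrins to actin, 34 were tested, and 6 were higher and 6 lower in the reporter-sorted libraries, where 13% of all genes were higher and 9.71% lower. Vcl (vinculin, 1.00 ± 0.22 on the log2 scale, SE, adjusted p = 0.010) and Parvb (beta-parvin, 0.86 ± 0.15, adjusted p = 0.0028) rose. Actn1, which crosslinks actin at adhesions, fell by 1.71 (SE 0.25, adjusted p = 0.0013). In unselected microglia 1 of 34 was higher and 5 were lower (2.22% and 1.93% of all genes), among the latter Actn1 (-2.0 ± 0.31), Pxn (paxillin, -0.92 ± 0.20) and Src, a kinase at adhesions (-0.84 ± 0.17). Pxn stood between 280 and 295 in WT and between 127 and 164 in APP-KI. Without C3ar1, 2 were higher and 5 lower (3.96% and 2.98% of all genes), and Actn1 (-2.01 ± 0.28), Ptk2 (focal adhesion kinase, 1.42 ± 0.39) and Pxn (-1.10 ± 0.18) had the largest differences among the 7 called. The medians of the list were -0.21, -0.10 and -0.05 in these 3 comparisons, beside -0.17, -0.01 and -0.03 for all genes. Under C3ar1 loss none of the 34 passed in either background.

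Of 31 ligands, 22 were tested in the reporter-sorted libraries, with 5 higher and 2 lower, beside 13% and 9.71% of all genes. Spp1 (osteopontin), a ligand of Itgav, Itga4 and Itga9 receptors, rose by 6.04 ± 0.32 on the log2 scale (SE, adjusted p = 1.5e-05, limma), from 18.9 to 1263. Ccn1 (-2.15 ± 0.56) and Pecam1 (-2.09 ± 0.36), a ligand of Itgav with Itgb3 and also an endothelial marker, fell. In unselected microglia Spp1 (5.75 ± 0.82) and the laminin chain Lamc1 (1.11 ± 0.25) were the 2 called of 23 tested, both higher (2.22% of all genes were). Without C3ar1 only Spp1 was called of 23, as higher (6.07 ± 0.73), where 3.96% of all genes were. The medians of the ligands were -0.53, 0.49 and 0.15, on either side of 0. Of the 9 TGF-beta genes, 6 were tested and none passed in the reporter-sorted libraries. Tgfb2 was higher in unselected APP-KI microglia (2.24 ± 0.48) and without C3ar1 (3.25 ± 0.43), at 1.0 to 2.2 in WT and 8.6 to 11.9 in APP-KI. It was the 1 called of 6 tested in each, beside 2.22% and 3.96% of all genes called higher. In the sorted libraries it ran from 3.7 to 19.2 in those labelled WT C3aR+ and from 0.2 to 10.1 in those labelled APP-KI C3aR+.

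Genes whose levels followed a subunit most closely over the 20 libraries are given as a description, since the points share genotype and library series. Among 12362 genes compared, Itga5 was most like Cadm1 (Pearson's r = 0.965), Fabp3 (0.963) and Srebf2 (0.95). Itga9 was most like Piezo1 (0.95), Arap3 (0.94) and Tmem204 (0.94). Itgb2 went with Trf (0.96), Tmem9b (0.94) and Slc39a1 (0.94), and Itgb3 with Dusp3 (0.95), Nxt2 (0.94) and Sfxn3 (0.93). The closest genes to Itgal were Il2rg (0.885), Mthfd1l and Kif23 (both 0.80). APP-KI replicate 5 (54.8), C3aR-KO replicate 2 (45.7) and APP-KI; C3aR-KO replicate 2 (37.6), each the highest of its group for Itgal, also held the highest summed T and NK markers of their groups (78.6, 73.7 and 42.4). The same held, at lower sums, for WT replicate 6 (11.6) and for replicate 2 of those labelled WT C3aR+ (14.8). Among those labelled APP-KI C3aR+, replicate 2 was highest for Itgal (51.1) and lowest for the T and NK markers (4.50). APP-KI replicate 5 also had the highest summed neuron markers (22.9, against 0.068 to 5.57 in the other libraries). Monocyte and neutrophil markers summed to 748 in WT replicate 6, the highest WT library for Itgal (36.8), against 114 and 73.4 in replicates 4 and 5. In every other group the highest library for Itgal was not the highest for that list. The part of any of these cell types was not tested.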

How the data were processed

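RNA of 20 libraries of sorted microglia was measured by total RNA sequencing. Per the labels and the methods of the study, the authors trimmed reads with cutadapt, aligned them to mm10 with TopHat, counted them per gene with featureCounts, and deposited 1 table per library whose signal values are named FPKM. The deposited values are reads divided by the upper quartile of the library: 100% of them came out as whole reads (within 0.01 read), with no division by length, so that the test planned for FPKM was kept on this unit. Whether UMIs or strand entered the counting is not given in the sources used here. Values were multiplied by 35.1 and tested as log2(value + 1) with limma 3.58.1 (R 4.3.3, trend), over genes with a mean of at least 1, with Benjamini-Hochberg adjustment over all genes tested and a threshold of 0.05. Fold changes on this scale understate those of low genes. The 6 reporter-sorted libraries were fitted alone, the 14 unselected ones together with a term for library series, and the 12 WT and APP-KI libraries together for the sort. The alternatives were edgeR 4.0.16 (quasi-likelihood, recovered reads), other scalings, filters and pseudocounts, a replicate block, and each library left out. In simulated data with log2 changes of 1, limma found 37.5% of them in the reporter-sorted design (12235 genes) and 8.08% for APP-KI against WT in the unselected one (12392 genes). Exonic lengths came from GENCODE M21 and promoters from RefSeq (GRCm38.p6). Members, lists and tests were chosen with earlier results of these data known. Subunits were named by a rule: all 10 for the reporter-sorted libraries; for unselected APP-KI against WT those called there or in the reporter-sorted libraries; elsewhere those called and, outside the sort comparisons within a genotype, the 2 with the smallest p. Each list gave up to 3 called genes with the largest change. Others are said to be named after their values were seen.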

Additional observations from a re-analysis of the deposited data

Results flagged for a closer look

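Of the 10 subunits, tested in the 1 group of 5 libraries, 2 had a library far from the others, a rule that chance meets in about 1 of 20 groups. In APP-KI; C3aR-KO, Itga5 was lowest in replicate 1 (46.0, against 105 to 117 in the other 4), with a gap of 0.835 of the whole range. Itgb1 was also lowest in replicate 1 (139, against 378 to 471), with a gap of 0.720 of the range, where 0.71 is the critical value. The same library listed 8929 genes at 0 and had the lowest summed microglial markers of all libraries (11887).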

How the results depend on the processing

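Between the reporter-sorted groups the same 5 subunits were called in 14 other settings, with 1 more (6 in all) under quantile normalization, the replicate block, and without WT C3aR+ replicate 1 or APP-KI C3aR+ replicate 1 or 3, and 0 at an adjusted p under 0.0005. Between unselected APP-KI and WT, 1 subunit was called. The number was 0 with a pseudocount of 0.1, no filter, no trend, edgeR or the replicate block. No series term or an adjusted p under 0.0005 also gave 0, and a filter at 5 or only the 2 groups gave 2. It was 5 without the libraries over 8000 at 0, where 13.2% of all genes were higher and 14.7% lower. With 1 library left out it ran from 0 to 3. When the library under 1000 was also left out, APP-KI had 1 library, and no count is given. Between APP-KI; C3aR-KO and C3aR-KO, in place of 2, it was 0 with no filter, no trend, the block, an adjusted p under 0.0005 or only the 2 groups, 1 with median-ratio scaling, quantile normalization, edgeR or no series term, 4 in both sets without the doubted libraries, and 0 to 3 with 1 library left out. Over all genes, leaving out the libraries over 8000 at 0 gave 1661 higher and 1849 lower between APP-KI and WT, in place of 275 and 239, and the block gave 92 and 19 (187 and 56, in place of 491 and 369, without C3ar1). Whether replicate numbers pair the libraries could not be decided from correlations, since library series partly follows the numbers. Same-numbered libraries correlated at -0.010 to 0.039 in the reporter-sorted groups, where different numbers gave -0.049 to 0.022. In unselected WT and APP-KI they correlated at 0.088 to 0.25, beside -0.22 to 0.20 for different numbers. In C3aR-KO and APP-KI; C3aR-KO they correlated at 0.00070 to 0.22, beside -0.24 to 0.24. Between the APP-KI groups with and without C3ar1 they correlated at -0.31 and 0.029, beside -0.31 to 0.46. Among the subunits named for each comparison by the rule, directions turned as follows. For APP-KI against WT, Itgal was at 0.19 without the libraries over 8000 at 0 and at -1.22 to 0.18 with 1 library left out, and Itgb2 at 0.049 and 0.12 without the doubted libraries and at -0.16 to 0.088 with 1 left out. For C3aR-KO against WT, Itga4 ran from -0.63 to 0.29 with 1 library left out, and Itgb2 was at -0.032 with no series term, -0.014 with only the 2 groups, and -0.13 and -0.12 without the doubted libraries. With the block, Itga5 was at 0.26 for C3ar1 loss in APP-KI, and Itgb3 ran from -0.065 to 0.45 for its difference between backgrounds with 1 library left out. The causes were not tested, other than that fewer libraries or genes entered some of these fits.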
